A study of Mus musculus with 22 samples.

Results

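The Foxp1 locus was taken as the gene Foxp1 (gene ID 108655, minus strand of chr6:98925342-99522746 in mm10, 597 kb) with 10 kb on each side, and its members were the ChIP-seq peaks that overlapped this 617 kb window. Of 362285 peaks in 18 lists, 701 (0.193%) lay there. Joined within each target wherever peaks shared at least 1 bp, they gave 304 regions of 161247 in the series. The cells were mouse regulatory T cells (Treg cells), primary cells from spleen and lymph nodes, stimulated for 1 h with a commercial cocktail. Fixation in 1% formaldehyde lasted 5 min where the mark was mapped and 30 min where a protein factor was. IkE5-deletion cells (IkE5) were compared with wild-type (WT) cells, and each genotype had 2 libraries for acetylation of histone H3 at lysine 27 (H3K27ac), the acetyltransferase p300, the calcium-regulated factor NFAT1 and the Treg factor Foxp3. Ikaros, the zinc finger factor encoded by Ikzf1, was mapped in 2 WT libraries, and 4 input samples were not analysed here. The labels do not expand IkE5, give no age or strain, and do not state if both libraries of a genotype stem from different mice, so their spread may be technical.

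Foxp1 is a forkhead transcription factor that holds naive T cells at rest and that, in Treg cells, occupies many of the DNA sites bound by its relative Foxp3. H3K27ac marks active promoters and enhancers, p300 is an enzyme that writes it, and NFAT1 enters the nucleus when the T cell receptor raises calcium. Long genes that are central to a cell type often carry many such elements in their introns, spread over wide acetylated domains. Foxp1 was selected on its peaks and H3K27ac cover in these same lists, which were lower in IkE5 than in WT cells, so differences between the genotypes are given below as values without a test.

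RefSeq lists 3 promoters for Foxp1 on GRCm38.p6, the assembly of mm10, and they are shown because they divide the gene into the stretches used below and because acetylated regions present in all 4 H3K27ac lists covered each of them. The distal start lies at position 99520993 (promoter chr6:99520944-99521243), the middle start 254 kb downstream (chr6:99266466-99266765) and the proximal start 493 kb downstream (chr6:99028249-99028548). Each sequence runs 5′ to 3′ on the minus strand from 250 bases before to 50 bases after the start. Capitals mark the letters GGGAA (core of Ikaros motifs), GGAAA (core of NFAT motifs) and TGTTTNC (forkhead motif), on either strand.
Foxp1 distal promoter: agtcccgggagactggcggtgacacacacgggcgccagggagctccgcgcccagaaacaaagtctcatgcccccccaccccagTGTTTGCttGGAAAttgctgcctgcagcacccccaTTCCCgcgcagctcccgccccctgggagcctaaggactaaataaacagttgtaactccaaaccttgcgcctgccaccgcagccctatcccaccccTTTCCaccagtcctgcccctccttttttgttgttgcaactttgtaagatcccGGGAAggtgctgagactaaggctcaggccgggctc
Foxp1 middle promoter: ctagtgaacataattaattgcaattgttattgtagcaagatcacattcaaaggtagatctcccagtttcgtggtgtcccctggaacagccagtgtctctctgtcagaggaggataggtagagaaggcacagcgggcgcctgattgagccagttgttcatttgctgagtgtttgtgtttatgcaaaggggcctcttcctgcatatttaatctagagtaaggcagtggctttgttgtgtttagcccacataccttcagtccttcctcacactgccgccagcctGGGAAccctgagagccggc
Foxp1 proximal promoter: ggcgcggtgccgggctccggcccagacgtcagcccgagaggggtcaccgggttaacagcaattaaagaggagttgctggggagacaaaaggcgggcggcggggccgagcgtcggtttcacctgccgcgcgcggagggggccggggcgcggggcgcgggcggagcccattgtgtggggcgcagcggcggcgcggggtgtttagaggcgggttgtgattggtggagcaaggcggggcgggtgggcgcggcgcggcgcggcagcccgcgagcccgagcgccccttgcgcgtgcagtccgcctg
The distal promoter held 2 matches to GGGAA, 2 to GGAAA and 1 to TGTTTNC, with no overlap among them. The middle promoter held 1 match to GGGAA alone, and the proximal promoter, at 75.3% G and C, held 0 matches to each. Of 32851 promoters of this length, 62.7% held GGGAA, 61.3% GGAAA and 20.5% TGTTTNC, so these matches describe the letters and no more. No factor peak of any list overlapped the 3 windows. The nearest NFAT1 region lay 1.16 kb from the distal, 4.70 kb from the middle and 1.08 kb from the proximal window.

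**Figure D1:**
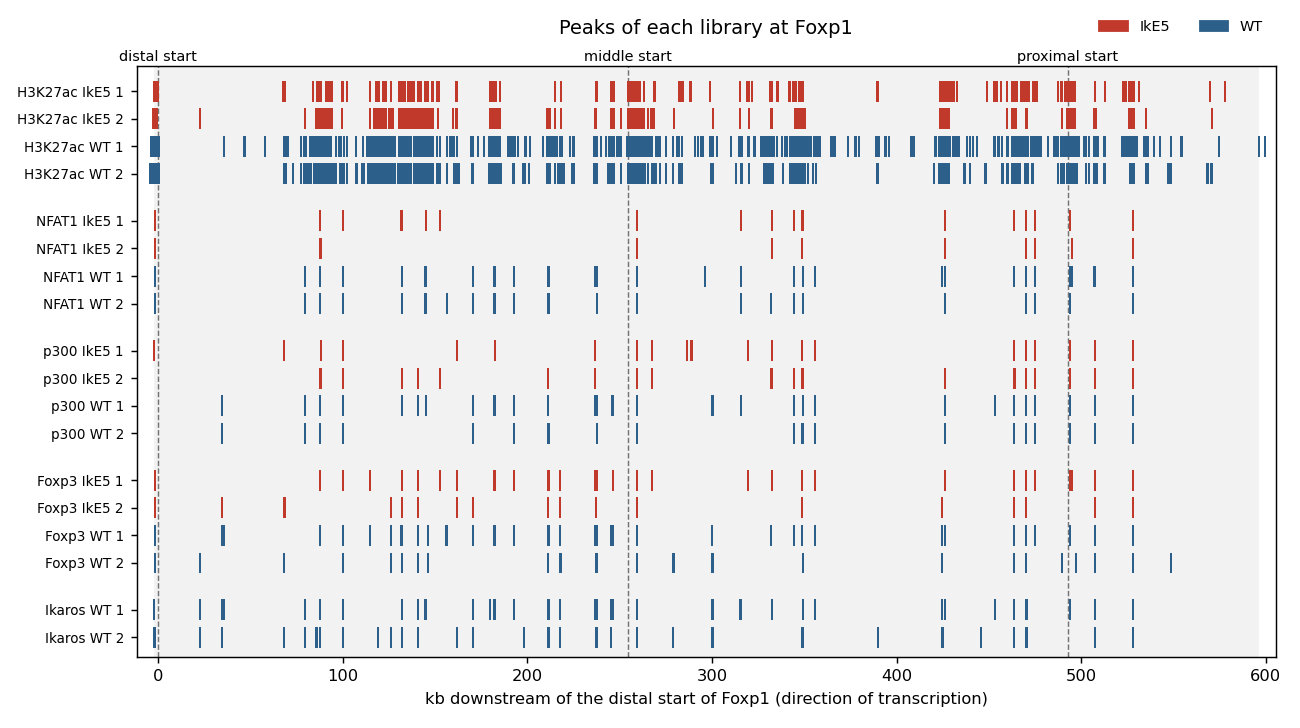
Peaks of each of the 18 libraries (rows, IkE5 in red above WT in blue for each target) against the distance in kb from the distal start of Foxp1 in the direction of transcription. Grey shading marks the gene, dashed lines the 3 starts, and narrow peaks are drawn at a minimum width. H3K27ac fills the WT rows more densely than the IkE5 rows, and NFAT1 rows of IkE5 are sparse between the distal and the middle start.

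The lists give position only, with no score, height or read number, so depth per library is unknown and a missing peak means that none was called. Numbers of peaks per list ranged over 37152 to 47982 in IkE5 and 35272 to 53032 in WT for H3K27ac. They ranged over 3435 to 4908 in IkE5 and 6850 to 7825 in WT for NFAT1. The p300 lists held 8971 and 11670 peaks in IkE5 and 8775 and 11457 in WT, and the Foxp3 lists 17265 and 21619 in IkE5 and 16526 and 20608 in WT. H3K27ac covered all 6 Treg markers (Foxp3, Il2ra, Ctla4, Ikzf2, Tnfrsf18 and Tnfrsf4) and the 5 annotated T cell markers in every list. It was present in every list at 4 of 8 B cell markers (Cd79a, Cd79b, Ebf1 and Pax5), 3 of 6 myeloid markers (Cd14, Itgam and Spi1) and 2 of 6 CD8 and natural killer markers (Cd8b1 and Klrb1c). It was absent in every list from 2, 2 and 1 of these markers, among them Ms4a1 of B cells, Csf1r and Lyz2 of myeloid cells and Ncr1 of natural killer cells. In bulk chromatin, fewer cells with a mark and less of the mark per cell cannot be told apart.

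Acetylated chromatin over Foxp1, scaled to each list, covered 51.1% of its WT length in IkE5 cells. H3K27ac peaks covered 109 and 111 kb of the window in the IkE5 libraries, against 244 and 185 kb in the WT libraries. Both IkE5 values lay below both WT values, and they lay closer to each other than the WT values did. Scaled to the total covered length of each list, the locus had 101 and 121 kb in IkE5 and 206 and 228 kb in WT. The scaled means were 111 ± 13.9 kb in IkE5 and 217 ± 15.5 kb in WT (SD, n = 2 each), a log2 difference of -0.97. Of 14790 genes with any H3K27ac, 20.5% had both scaled IkE5 values below both WT values and 17.8% above, so that ordering alone is common. The number of H3K27ac peaks was 82 and 53 in IkE5 and 143 and 90 in WT, again without overlap. Of genes with such a peak, 8.55% had fewer in both IkE5 lists than in both WT lists and 6.08% had more.

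**Figure D2:**
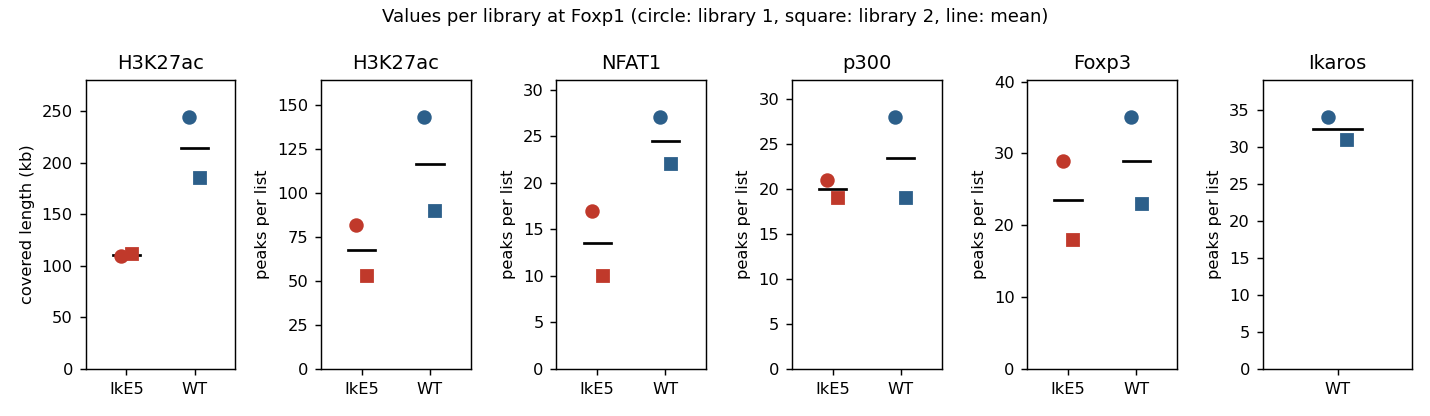
Values of each library in the Foxp1 window, IkE5 left of WT, with H3K27ac covered length in kb in the first panel and peaks per list in the others (circle library 1, square library 2, line the mean). H3K27ac length, H3K27ac peaks and NFAT1 peaks do not overlap between genotypes, whereas p300 and Foxp3 peaks, unscaled as drawn, do.

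Regions kept in IkE5, regions missing there and the remaining regions each had a share in the shorter cover. Wide regions kept in all 4 lists accounted for 43.9% of the difference in mean covered length (96.2 and 104 kb in IkE5 and 153 and 139 kb in WT over 25 regions). WT only regions, those with a peak in both WT lists and in neither IkE5 list, accounted for 22.7% (0 and 0 kb in IkE5 and 25.2 and 22.0 kb in WT over 22 regions). The other 99 regions, 79 of them in a single list and 15 in both WT lists and 1 IkE5 list, accounted for 33.3%. WT library 1 alone held 62 of the 79, so this last portion leans on that library. It came to 13.2 and 7.58 kb in the IkE5 libraries, against 65.7 and 24.3 kb in the WT libraries.

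Of the 25 kept regions, 18 were shorter in both IkE5 libraries than in both WT libraries and 0 were longer in both. Among all kept regions of the genome, 22.6% were shorter and 19.1% longer. Those were not matched for width, with a median of 2430 bp against 4066 bp at Foxp1. The region over the distal promoter (chr6:99520046-99524509) covered 3.13 and 3.05 kb in IkE5 and 4.46 and 4.33 kb in WT. The region over the middle promoter (chr6:99256369-99267346) covered 8.17 and 9.39 kb in IkE5 and 10.98 and 10.3 kb in WT. The region over the proximal promoter (chr6:99022677-99032664) covered 7.38 and 7.24 kb in IkE5 and 9.97 and 9.84 kb in WT. All 3 promoters were thus acetylated in both genotypes, over a shorter stretch in IkE5. The longest kept region, chr6:99371661-99391462 inside the gene, covered 13.5 and 18.6 kb in IkE5 and 19.4 and 19.2 kb in WT. Its neighbour chr6:99392027-99408593 covered 6.72 and 11.4 kb in IkE5 and 16.3 and 15.7 kb in WT. The widest single peak of the locus measured 7.67 and 8.20 kb in the IkE5 lists, against 11.5 and 15.7 kb in the WT lists.

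Along the gene the shortening was broad. Of 31 bins of 20 kb, 21 had less cover in both IkE5 libraries than in both WT libraries and 0 had more. Of the bins of the genome that held any H3K27ac, 18.8% had less and 15.6% more. Those bins were not matched to Foxp1 for the amount of cover. From 190 to 210 kb downstream of the distal start the IkE5 libraries had 0 and 0 kb, whereas the WT libraries had 6.19 and 4.87 kb. From 130 to 150 kb they had 13.5 and 18.3 kb in IkE5 and 19.1 and 18.8 kb in WT. Between the distal and the middle start the cover was 42.3 and 60.8 kb in IkE5 and 106 and 99.6 kb in WT. Between the middle and the proximal start it was 51.1 and 36.0 kb in IkE5 and 107 and 64.2 kb in WT. The IkE5 share of the WT length was 50.2% and 50.8% in these 2 stretches.

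**Figure D3:**
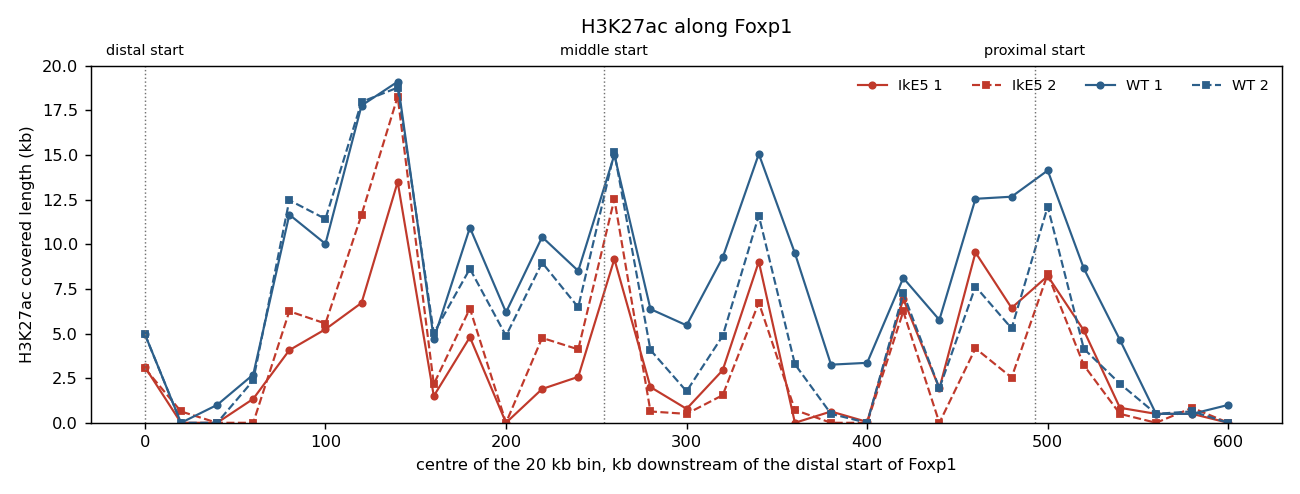
H3K27ac covered length (kb) in bins of 20 kb, plotted at the bin centre by distance from the distal start of Foxp1, one line per library (IkE5 red, WT blue, library 2 dashed). IkE5 lies below WT in 21 of 31 bins, and in the bin from 190 to 210 kb both IkE5 libraries have 0 kb while both WT libraries do not.

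WT only H3K27ac regions were more frequent at Foxp1 than in the genome. They were 22 of the 62 regions in both WT lists (35.5%), against 11.7% over all such regions, and 0 of the 25 regions in both IkE5 lists were IkE5 only, against 9.65%. They measured 608 to 3050 bp, with a median of 1113 bp, whereas the kept regions had a median of 4066 bp. The widest was chr6:99166735-99169784, and 1 at chr6:99321635-99323692 overlapped the non-coding gene Gm32882 inside Foxp1. Only 1 of the 22 (4.55%, Wilson 95% interval 0.807 to 21.8%) overlapped an Ikaros region found in both lists, against 14 of the 25 kept regions. Over the genome these shares were 9.21% and 63.0%, and kept regions are wider, which gives them more room for an overlap. With 1 library left out fewer lists have to agree. WT only regions then numbered 39 of 83 without WT library 1 (47.0%, genome 20.4%) and 90 of 136 without WT library 2 (66.2%, genome 34.7%). They numbered 32 of 64 without IkE5 library 1 (genome 17.3%) and 31 of 64 without IkE5 library 2 (48.4%, genome 17.1%).

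The acetyltransferase p300 had 21 and 19 peaks in the window in IkE5 and 28 and 19 in WT, and these raw counts overlapped. Over the genome, 8.44% of genes with a p300 peak had fewer in both IkE5 lists and 6.19% had more. Per 10000 peaks of the list Foxp1 had 17.99 and 21.2 in IkE5 and 24.4 and 21.7 in WT, where both IkE5 values lay below both WT values, the nearest pair being 21.2 and 21.7 (log2 difference -0.23). Of 37 p300 regions 10 were in all 4 lists. Of the 19 in both WT lists, 5 were WT only (26.3%, against 15.2% over the genome), and of the 13 in both IkE5 lists, 2 were IkE5 only (15.4%, against 17.2%). The WT only share came close to the genome without IkE5 library 1 (31.6%, genome 30.9%) and without WT library 1 (26.3%, genome 24.0%). It was 42.1% without IkE5 library 2 (8 regions, genome 22.8%) and 35.7% without WT library 2 (10 regions, genome 29.8%). IkE5 only regions rose to 8 without IkE5 library 2.

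All 5 WT only p300 regions lay between the distal and the middle start. They were found 34.6, 79.6, 170, 193 and 238 kb downstream of the distal start. In that stretch 8 p300 regions were in both WT lists, of which 5 were WT only and 2 in all 4 lists. In the rest of the window 11 were in both WT lists, of which 0 were WT only and 8 in all 4 lists. Peaks in the stretch numbered 6 and 7 in IkE5 and 14 and 8 in WT, and in the rest of the window 15 and 12 in IkE5 and 14 and 11 in WT. The higher value in the stretch came from WT library 1. This division by annotated starts was chosen after the positions had been seen and is given without a test. WT only regions in the rest numbered 3 without WT library 2, 1 without IkE5 library 1 and 2 without IkE5 library 2.

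NFAT1 had fewer peaks at Foxp1 in IkE5, in the same measure as its whole lists were shorter. There were 17 and 10 peaks in IkE5 and 27 and 22 in WT, without overlap. Of genes with an NFAT1 peak, 29.1% had fewer in both IkE5 lists than in both WT lists and 2.51% had more. Per 10000 peaks of the list the values were 34.6 and 29.1 in IkE5 and 34.5 and 32.1 in WT, and these overlapped. Of 31 NFAT1 regions 8 were in all 4 lists. WT only regions were 6 of the 20 in both WT lists (30.0%), fewer in share than over the genome (40.6%). IkE5 only regions were 1 of the 9 in both IkE5 lists (11.1%, genome 15.6%). Without IkE5 library 1 there were 12 WT only regions, 60.0% against 59.8% over the genome, and without WT library 2 there were 11, 40.7% against 53.8%.

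Where the NFAT1 regions were missing followed the p300 pattern. All 6 WT only NFAT1 regions lay between the distal and the middle start, where 10 regions were in both WT lists and 1 was in all 4 lists. In the rest of the window 10 regions were likewise in both WT lists, of which 0 were WT only and 7 were in all 4 lists. NFAT1 peaks in that stretch numbered 5 and 1 in IkE5 and 11 and 11 in WT. In the rest of the window they numbered 12 and 9 in IkE5 and 16 and 11 in WT. IkE5 library 2, the shortest list, thus had a single NFAT1 peak over the 254 kb after the distal start and 9 elsewhere in the window. WT only regions outside the stretch numbered 1 without WT library 1, 4 without WT library 2 and 3 without IkE5 library 1, against 7, 7 and 9 within it.

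**Figure D4:**
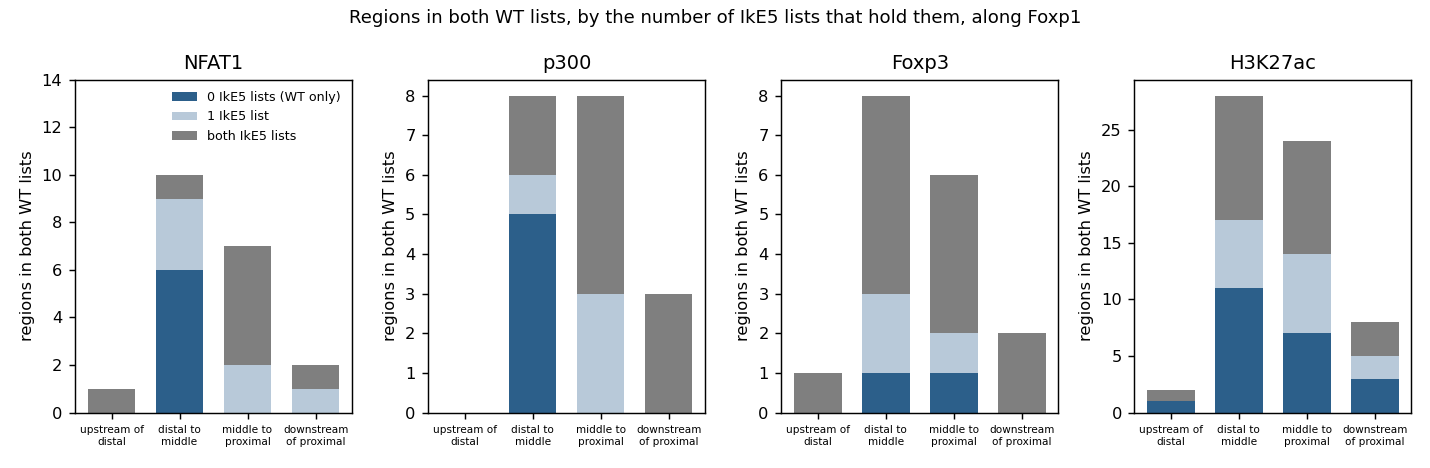
Regions found in both WT lists, counted in 4 stretches of the Foxp1 window set by its 3 annotated starts, and shaded by how many IkE5 lists hold the region. The 6 WT only regions of NFAT1 and the 5 of p300 all fall between the distal and the middle start, while those of H3K27ac fall in all 4 stretches.

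At 4 sites the WT only regions of NFAT1 and p300 coincided. At chr6:99441075-99441673, 79.6 kb downstream of the distal start, both Ikaros lists had a peak, no Foxp3 list had one, and H3K27ac was present in IkE5 library 2 and both WT libraries. At chr6:99350404-99350908, 170 kb downstream, both Ikaros lists had a peak, and the surrounding H3K27ac region (chr6:99349728-99351804) was WT only as well, while Foxp3 had a peak in IkE5 library 2 and WT library 1. At chr6:99328145-99328709, 193 kb downstream, H3K27ac (chr6:99327428-99329643) was again WT only, Foxp3 had a peak in IkE5 library 1 and WT library 1, and Ikaros in WT library 1. At chr6:99283204-99283759, 238 kb downstream, Foxp3 had a peak in all 4 lists, both Ikaros lists had one, and H3K27ac was kept in all 4 lists. The 4 sites therefore differed in Foxp3 and in acetylation. Just beside the last site p300 had another region (chr6:99283969-99284622), with a peak in both IkE5 libraries and WT library 1. With peaks joined across gaps of up to 500 bp, 4 WT only p300 regions were left in place of 5. Over the genome 11.6% of the WT only NFAT1 regions coincided with a WT only p300 region, and 23.9% of the WT only p300 regions with a WT only NFAT1 region, against 4 of 6 and 4 of 5 here.

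The other WT only sites held 1 of the pair. NFAT1 was WT only at chr6:99309332-99309869, where p300 had a peak in IkE5 library 2 and in both WT libraries and Foxp3 in all 4. NFAT1 was also WT only at chr6:99338608-99339124, where p300 had a peak in IkE5 library 1 and WT library 1. p300 was WT only at chr6:99486071-99486666, 34.6 kb downstream of the distal start, where both Ikaros lists had a peak. No H3K27ac region overlapped it, though 1 of WT library 1 alone lay nearby (chr6:99485118-99485617). Ikaros regions of both lists overlapped 4 of the 5 WT only p300 regions (80.0%, Wilson 95% interval 37.6 to 96.4%) and 8 of the 10 in all 4 lists. For NFAT1 they overlapped 4 of 6 WT only regions (66.7%, interval 30.0 to 90.3%) and 6 of 8 in all 4 lists. Over the genome Ikaros overlapped 75.4% of WT only and 82.0% of kept p300 regions. It overlapped 76.3% of WT only and 70.8% of kept NFAT1 regions. With 5 and 6 regions the intervals are too wide to tell Foxp1 from these values.

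IkE5 only sites were few. At chr6:99188286-99188935, 332 kb downstream of the distal start, p300 was IkE5 only and overlapped the IkE5 only NFAT1 region at chr6:99188082-99188765. WT library 2 had an NFAT1 peak just beside it, and with peaks joined across gaps of up to 500 bp no IkE5 only NFAT1 region was left. The second IkE5 only p300 region was chr6:99253218-99253723, 268 kb downstream of the distal start, where Foxp3 had a peak in IkE5 library 1. The single IkE5 only Foxp3 region was chr6:99358978-99359527. All of them lay in H3K27ac regions kept in all 4 lists, and 0 overlapped an Ikaros region of both lists, against 27.1% of Foxp3, 38.3% of p300 and 25.5% of NFAT1 IkE5 only regions over the genome. An Ikaros peak of a single list overlapped 3 of the 4, all but chr6:99253218-99253723.

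Foxp3 itself bound Foxp1 in both genotypes. There were 29 and 18 peaks in IkE5 and 35 and 23 in WT, and these raw counts overlapped. Per 10000 peaks of the list the values were 13.4 and 10.4 in IkE5 and 17.0 and 13.9 in WT, where both IkE5 values lay below both WT values (log2 difference -0.37). Of genes with a Foxp3 peak, 4.39% had fewer in both IkE5 lists than in both WT lists and 5.19% had more. Of 46 Foxp3 regions, 12 were in all 4 lists, and all 12 overlapped an Ikaros region of both lists, against 92.2% of such regions over the genome. Of the 17 in both WT lists 2 were WT only (11.8%, genome 7.71%), and of the 13 in both IkE5 lists 1 was IkE5 only (7.69%, genome 9.87%). The WT only regions were chr6:99220497-99221042 and chr6:99374482-99375220, the first with Ikaros in both lists. WT only counts were 7 without WT library 1, 7 without WT library 2 and 4 without IkE5 library 2. The share of WT only regions was 30.4% without WT library 1 (genome 22.7%), 7 of 35 without WT library 2 (genome 21.4%) and 23.5% without IkE5 library 2 (genome 20.4%). The count of 7 of 35 was a lower share than the genome. IkE5 only regions numbered 5 without IkE5 library 2.

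Ikaros, mapped in WT cells only, had 34 and 31 peaks in the window and 21 regions in both lists. Of the 21, 12 lay between the distal and the middle start. Foxp3 of both WT lists overlapped 15 of them (71.4%, genome 57.1%), p300 of both WT lists 13 (61.9%, genome 33.4%) and NFAT1 of both WT lists 12 (57.1%, genome 23.3%). H3K27ac of both WT lists overlapped 19 (90.5%, genome 85.6%). The shares with p300 and NFAT1 were thus higher at Foxp1 than over the genome, a difference given without a test, since sites of 1 gene are not replicates.

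Joined over the 4 mapped proteins, the peaks of the 14 factor lists formed 60 sites, of which 20 held all 4 proteins, 13 held 3, 11 held 2 and 16 held a single protein. H3K27ac regions of at least 1 list overlapped 54 of the 60. At 4 sites every one of the 14 lists had a peak. These were chr6:98992647-98993272, chr6:99050321-99051131, chr6:99171446-99172323 and chr6:99261177-99261827, and H3K27ac was kept in all 4 lists at each. They lie 528, 470, 349 and 259 kb downstream of the distal start, and thus all beyond the middle start. At the gene's upstream end, NFAT1 (chr6:99522407-99523013) and Foxp3 (chr6:99522630-99523252) were in all 4 lists, beside Ikaros of both lists (chr6:99522838-99523684), and p300 had a peak in IkE5 library 1 alone.

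The nearest peaks outside the window lay 11.7 to 282 kb beyond its lower-coordinate end and 9.26 to 1268 kb beyond its higher-coordinate end, depending on the list. A Foxp3 peak of WT library 1 at chr6:99532620-99533119 straddled the higher-coordinate end and was counted. Among 6 neighbouring protein-coding genes within 1 Mb (Mitf, Gm765, Eif4e3, Gpr27, Prok2 and Rybp), 3 carried H3K27ac. Of the 3 with H3K27ac, 2 had a WT only H3K27ac region, against 13.3% of all genes with H3K27ac. Eif4e3, a relative of the cap-binding translation factor, had 3.62 and 10.4 scaled kb in IkE5 and 9.88 and 15.4 in WT, which overlapped. Rybp, a Polycomb subunit, had 1.91 and 2.30 scaled kb in IkE5 and 2.28 and 2.95 in WT, which also overlapped. Mitf had 3.25 and 4.51 scaled kb in IkE5 and 2.03 and 4.66 in WT, which overlapped too. The log2 differences were -0.85 for Eif4e3, -0.32 for Rybp and 0.21 for Mitf.

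Among 21887 protein-coding genes with 10 kb on each side, Foxp1 had the most H3K27ac, p300, NFAT1 and Ikaros regions, and 1 gene had more Foxp3 regions, while 154 genes were longer. Inpp4b, a lipid phosphatase gene of 792 kb, came next, with 130 H3K27ac, 30 p300 and 30 NFAT1 regions against 146, 37 and 31 at Foxp1. Its scaled H3K27ac length averaged 223 kb in IkE5 and 187 kb in WT, a log2 difference of 0.25 against -0.97 at Foxp1. Foxp1 had the longest scaled H3K27ac cover of all genes in WT and the fifth longest in IkE5. Of 70 genes whose mean scaled cover was at least 50 kb, 1 (Thada, at -1.01) had a lower log2 difference, and from the 5th to the 95th percentile these genes ranged over -0.49 to 0.76. A long gene has more regions to lose, so counts of WT only regions rank it high for its size as well.

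**Figure D5:**
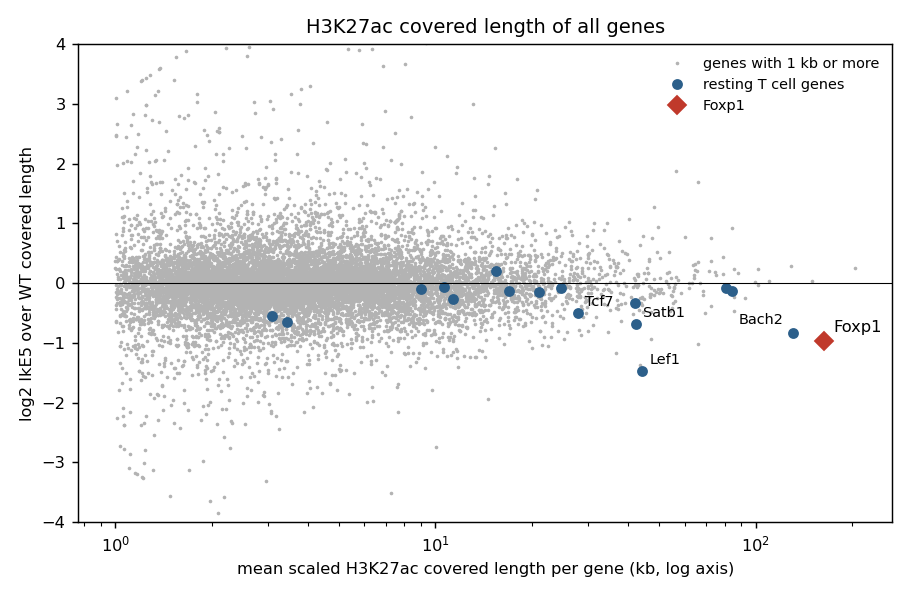
Each grey point is a gene with a mean scaled H3K27ac cover of at least 1 kb (x axis, kb, log scale) and its log2 ratio of IkE5 over WT cover (y axis, cut at 4 in each direction, with 6 of 12690 genes outside). Foxp1 (red, -0.97) and the resting T cell genes (blue) are marked, and Lef1 and Bach2 lie below 0 beside Foxp1.

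Scaled H3K27ac cover was lower in both IkE5 libraries than in both WT libraries at 2 of 8 other forkhead genes. The same held at 7 of 16 genes known from resting T cells, against 20.5% of genes with H3K27ac. Cover was higher in both IkE5 libraries at 0 of the 8 and 1 of the 16, against 17.8%. That gene was Il7r, with 16.6 and 16.4 scaled kb in IkE5 and 12.5 and 16.2 in WT. Of the Foxp family, Foxp2 had no H3K27ac in any list. Foxp4 had 10.1 and 10.4 scaled kb in IkE5 and 10.97 and 12.9 in WT, and Foxp3 had 18.6 and 22.6 in IkE5 and 18.3 and 23.9 in WT. Of 8 other forkhead genes, 4 had a WT only H3K27ac region, and Foxo1, which sustains quiescence and lymph node homing, had 25.2 and 25.8 scaled kb in IkE5 and 33.4 and 42.1 in WT. The median log2 difference of these 8 was -0.03, the same as over 13781 genes with a value (-0.03). Of 16 resting T cell genes, 11 had a WT only H3K27ac region, against 13.3% of genes with H3K27ac, and 3 an IkE5 only region, against 11.2%. Their median log2 difference was -0.21. Of 14 with an NFAT1 region, 9 had a WT only one (31.1% over all genes with NFAT1) and 3 an IkE5 only one (4.61%). Of 14 with a p300 region, 3 had a WT only one (11.3%) and 4 an IkE5 only one (8.56%). Of 15 with a Foxp3 region, 2 had a WT only one (6.31%) and 2 an IkE5 only one (7.25%). The shares over all genes were not matched for the number of regions, and a gene with more regions can more easily hold either class. Lef1, a factor of naive T cells, had 15.1 and 31.9 scaled kb in IkE5 and 50.7 and 79.4 in WT. Bach2, a repressor of effector genes, had 68.5 and 120 scaled kb in IkE5 and 150 and 186 in WT. The list was written with earlier results of these data known, so its counts are no independent support.

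Markers of other cells moved in part with the genotype. The summed scaled H3K27ac length of 8 B cell genes was 17.6 and 18.4 kb in IkE5 and 20.1 and 25.7 kb in WT, with 3 and 3 genes at 0 in IkE5 and 2 and 3 in WT. That of 6 myeloid genes was 10.3 and 12.1 kb in IkE5 and 13.8 and 13.4 kb in WT, with 2 and 2 at 0 in IkE5 and 2 and 3 in WT. That of 6 CD8 and natural killer genes was 3.11 and 4.56 kb in IkE5 and 7.27 and 7.57 kb in WT, with 3 and 4 at 0 in IkE5 and 1 and 2 in WT. All 3 sums were lower in both IkE5 libraries, as the cover of Foxp1 was. Gene by gene, both IkE5 values lay below both WT values at 4 of 8 B cell, 1 of 6 myeloid and 3 of 6 CD8 and natural killer genes. Both lay above at 0 genes of each list. Among all genes with H3K27ac these shares were 20.5% below and 17.8% above. Without Cd79a, the longest member, the B cell sum was 7.12 and 7.01 kb in IkE5 and 7.32 and 6.89 kb in WT, which overlapped. Without Spi1 the myeloid sum was 6.36 and 5.79 kb in IkE5 and 7.23 and 5.76 kb in WT, which overlapped too. Without Klrb1c the CD8 and natural killer sum was 1.75 and 1.42 kb in IkE5 and 4.59 and 4.87 kb in WT, and did not overlap. Leaving out the longest member was chosen after the values were seen. The part of these markers in the Foxp1 difference was not tested. The summed length of the 6 Treg markers was 268 and 266 kb in IkE5 and 236 and 249 kb in WT. Ikzf2 alone had 148 and 135 kb in IkE5 and 125 and 108 kb in WT. It was the only 1 of the 6 with both IkE5 values above both WT values, and 0 had both below.

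By peak numbers over 16 lists, the 5 genes most like Foxp1 among 735 with enough regions were Rapgef6 (Pearson r = 0.77), Map4k4 (0.73), Wdr26 (0.72), Lef1 (0.70) and Nfia (0.69). The likeness was taken over 16 values per gene, 4 targets with 4 lists each, centred within each target, and the median r was 0.12 with a 95th percentile of 0.48. The values share libraries and list lengths, and the choice of Foxp1 for its pattern leaves no p-value to give. Rapgef6, an exchange factor for the small GTPase Rap, had 18 and 8 H3K27ac peaks in IkE5 and 30 and 18 in WT, and 2 and 1 NFAT1 peaks in IkE5 against 3 and 3 in WT. Map4k4, a kinase gene, had 23 and 23 H3K27ac peaks in IkE5 and 41 and 31 in WT. Nfia, a nuclear factor I gene, had 12 and 9 H3K27ac peaks in IkE5 and 18 and 12 in WT, while its scaled covered length differed by -0.10 on the log2 scale.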

How the data were processed

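The data were 18 deposited peak lists of single ChIP-seq libraries, with chromosome, start and end of each peak and no score. Per the submitters' processing notes, FastQC, Bowtie2, MACS2, bedtools and HOMER were used with the build mm10. Which tool called the peaks, the threshold and the control are not given in the sources used here. From the deposited positions, Python 3.11.15 scripts joined peaks of a target that shared at least 1 bp. Regions were called WT only or IkE5 only from presence in both lists of a genotype and neither list of the other, and the same was counted over all regions. H3K27ac covered length was scaled to the mean total of the 4 lists. Peaks in the lists of a target did not repeat each other, with at most 0.672% identical intervals between any pair. The code was tested on simulated lists. Gene positions and promoters came from RefSeq tables of GRCm38.p6, which give gene ends only, so exons and introns are not told apart, and Trac was not matched.

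Named genes were Foxp1, its neighbours within 1 Mb, fixed lists, and the 5 genes with the highest Pearson r to Foxp1 over 16 values of log2(peaks per 10000 + 1), among genes with at least 5 H3K27ac and 3 regions of each other target. Inpp4b and Thada were named after their values were seen. Single values of some listed genes are not reported here. The members and lists were chosen with earlier results of these data known, so no comparison of genotypes was tested, and with 2 libraries against 2 none could pass 0.05 by an exact permutation test. Wilson intervals cover counting error only. Alternatives changed the window, the joining of peaks, the scaling and the libraries kept.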

Additional observations from a re-analysis of the deposited data

How the results depend on the processing

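No paired analysis was possible because no result comes from a test. Libraries were not matched by number between the genotypes in any comparison or alternative. Library 1 had the longer list in both genotypes for H3K27ac, p300, NFAT1 and Foxp3. The spread between libraries may therefore be shared by the genotypes, which was not tested. Of 152 recomputed values for 23 results, 116 stayed within 1.5 times the count, or within the spread between replicates or the interval of a share, and 36 moved. With 50% reciprocal overlap, H3K27ac regions at Foxp1 were WT only at 50 places (23 between the distal and the middle start and 27 in the rest) and IkE5 only at 16, because a shorter peak then no longer counts as the same region. Joined across gaps of up to 500 bp, IkE5 only NFAT1 regions numbered 0, and WT only H3K27ac regions outside the distal to middle stretch numbered 7. Unscaled, the log2 difference in NFAT1 peaks was -0.86 in place of -0.06, because the IkE5 lists are shorter. With an Ikaros peak in either list, the WT only share with Ikaros was 100% for p300 (5 of 5) and for NFAT1 (6 of 6). That looser rule also found Ikaros at 9 of 10 kept p300 regions and 7 of 8 kept NFAT1 regions. Genome shares by the looser rule are not given here. The split at the midpoint of the gene, chosen after seeing the data like the division by starts, kept all WT only regions of p300 and NFAT1 on the side of the distal start. Without IkE5 replicate 2 the log2 difference in NFAT1 peaks was 0.056, the only change of sign among the recomputed log2 differences. The counts and shares among the 152 values cannot change sign. The log2 difference of H3K27ac covered length held its sign in every alternative.

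Leaving out each library in turn gave these ranges. WT only regions numbered 3 to 7 for Foxp3, 5 to 10 for p300, 6 to 12 for NFAT1 and 31 to 90 for H3K27ac. IkE5 only regions numbered 1 to 5 for Foxp3, 2 to 8 for p300, 1 to 2 for NFAT1 and 0 to 8 for H3K27ac. Between the distal and the middle start WT only regions numbered 5 to 7 for p300, 6 to 9 for NFAT1 and 13 to 29 for H3K27ac, and in the rest of the window 0 to 3, 0 to 4 and 15 to 61. The log2 difference ranged over -0.57 to -0.20 for Foxp3 peaks, -0.36 to -0.12 for p300 peaks, -0.19 to 0.06 for NFAT1 peaks, -0.88 to -0.62 for H3K27ac peaks and -1.10 to -0.85 for H3K27ac covered length. Counts rise by construction when fewer lists have to agree. Depth is unknown, so an absent peak sets no limit on binding.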
